A study of Mus musculus with 12 samples.

Results

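Liver RNA of the 4 mice fed a high-fat diet was compared with that of the 2 mice kept on chow, so that the genes described here are those whose level in Sham and in VSG mice alike lay away from both Control mice. Of the 12 samples of the study, the 6 RNA-seq libraries were used. The members were the genes for which all 4 high-fat libraries lay above, or all 4 below, both Control libraries. They numbered 2557 of the 9751 genes tested (26.2%). All mice were male C57BL/6J. Control mice (n = 2) received standard rodent chow for 28 weeks, without an operation. Sham and VSG mice (n = 2 each) received a 60 kcal% saturated fat diet (D12492) from 8 weeks of age, for 14 weeks before and 14 weeks after an operation, with a liquid diet on the first 4 days after it. Vertical sleeve gastrectomy (VSG) removes most of the stomach along its outer curve and leaves a narrow tube, whereas in the Sham operation the stomach was isolated and only pressed with forceps. Because both high-fat groups were operated on and the Control group was not, the diet and having been operated on cannot be told apart.

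The liver turns surplus carbohydrate and amino acids into fatty acids, cholesterol and glucose, and each of these routes is set largely by how much of its enzymes is transcribed. A diet rich in fat delivers fatty acids directly, which liver cells take up, burn, export or store as droplets. Nuclear receptors such as the PPARs sense these fatty acids, while SREBP-1c and ChREBP drive fat synthesis in answer to insulin and sugar. The liver also makes the acute phase proteins of plasma, breaks down amino acids into urea, clears drugs and steroids through cytochrome P450 enzymes, and houses a large population of resident macrophages, the Kupffer cells.

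The sequences just before the start of 7 of the called genes named below are shown, because the open chromatin of the same livers can be read there and because binding elements of the receptors above were looked for in them. Each is the 250 bases upstream of the RefSeq start (GRCm38.p6), placed by exact match on mm9, the build of the deposited files, and written 5′ to 3′ on the strand of the gene. Capitals mark a match to AGGTCA, the core element of many nuclear receptors, to a pair of AGGTCA on one strand separated by 1 base, the PPAR arrangement that contains it, to TCACNCCAC, the sterol regulatory element bound by SREBP, or to CACGTG, the E-box of clock and carbohydrate-sensing factors, on either strand. The first 5 genes fell and Ucp2 and Cd36 rose, as described below: Scd3 (chr19:44277528-44277777, plus strand), Scd4 (chr19:44407566-44407815, plus), Tat (chr8:112514086-112514335, plus), Cyp2b10 (chr7:26682427-26682676, plus), Lpin1 (chr12:16617773-16618022, minus), Ucp2 (chr7:107641617-107641866, plus) and Cd36 (chr5:17341715-17341964, minus).
Scd3: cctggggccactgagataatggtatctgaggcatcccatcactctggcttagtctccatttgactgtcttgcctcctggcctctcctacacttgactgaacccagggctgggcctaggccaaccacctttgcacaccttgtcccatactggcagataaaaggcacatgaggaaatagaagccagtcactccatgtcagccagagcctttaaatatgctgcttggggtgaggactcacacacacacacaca
Scd4: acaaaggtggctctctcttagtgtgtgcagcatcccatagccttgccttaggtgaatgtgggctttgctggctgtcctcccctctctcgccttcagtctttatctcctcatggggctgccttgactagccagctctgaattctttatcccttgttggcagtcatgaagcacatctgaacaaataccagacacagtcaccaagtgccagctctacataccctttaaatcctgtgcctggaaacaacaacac
Tat: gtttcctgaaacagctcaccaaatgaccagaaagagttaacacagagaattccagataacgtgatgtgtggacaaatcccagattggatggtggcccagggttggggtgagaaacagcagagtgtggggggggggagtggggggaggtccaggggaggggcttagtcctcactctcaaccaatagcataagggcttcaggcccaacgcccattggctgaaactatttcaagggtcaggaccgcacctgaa
Cyp2b10: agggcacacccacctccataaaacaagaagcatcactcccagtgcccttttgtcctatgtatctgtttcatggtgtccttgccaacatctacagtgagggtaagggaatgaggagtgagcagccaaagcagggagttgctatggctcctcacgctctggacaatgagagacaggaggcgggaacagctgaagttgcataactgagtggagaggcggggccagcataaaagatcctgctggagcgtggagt
Lpin1: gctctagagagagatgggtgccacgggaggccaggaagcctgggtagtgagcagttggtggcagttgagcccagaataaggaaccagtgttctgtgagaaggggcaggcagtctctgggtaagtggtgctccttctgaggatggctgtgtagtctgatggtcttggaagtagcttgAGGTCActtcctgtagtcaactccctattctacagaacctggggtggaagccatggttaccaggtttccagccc
Ucp2: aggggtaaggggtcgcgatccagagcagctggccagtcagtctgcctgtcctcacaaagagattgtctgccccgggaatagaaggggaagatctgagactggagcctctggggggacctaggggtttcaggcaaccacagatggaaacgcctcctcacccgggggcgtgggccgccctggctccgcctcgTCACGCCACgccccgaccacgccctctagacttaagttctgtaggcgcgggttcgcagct
Cd36: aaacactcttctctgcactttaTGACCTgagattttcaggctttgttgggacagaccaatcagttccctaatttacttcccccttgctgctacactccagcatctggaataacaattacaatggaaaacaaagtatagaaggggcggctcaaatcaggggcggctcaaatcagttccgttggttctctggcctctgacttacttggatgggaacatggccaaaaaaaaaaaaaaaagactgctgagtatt
Lpin1 and Cd36 each held 1 AGGTCA in this stretch and Ucp2 1 TCACGCCAC, 60 bases before its start, while Scd3, Scd4 and Tat held none of these elements in the bases shown. In Cyp2b10 a TCACNCCAC match crosses the start, with its first base 7 bases before it, so it is not whole in the bases shown and not in capitals.

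Expression was read as FPKM, fragments scaled by transcript length and by the mapped reads of the library, summed here over the transcripts of a gene symbol. A gene was tested when its FPKM was at least 1 in at least 2 libraries. A gene under 1 FPKM in both Control mice thus passed this filter only through high-fat mice. This favours higher members in lists of weakly expressed genes, so their shares are partly set by the filter. Differences are log2 fold changes on log2(FPKM + 1), high-fat minus Control, given with their SE. A fold given for a single gene is instead the ratio of the mean FPKM of the diets, without the added 1. The SE and adjusted p belong to the log2 difference. The deposited FPKM do not give the number of reads behind a library, so the depth is unknown. Between 8592 and 9135 genes had an FPKM of at least 1 in a library. Across genes the log2 values of the Control pair correlated at 0.919, those of the VSG pair at 0.891 and those of the Sham pair at 0.863. VSG mouse 2 stood apart in its hemoglobin transcripts, with Hba-a1 at 670.0 FPKM against 60.8 to 167 in the other 5 mice, and Sham mouse 2 in its low P450 levels given below. The hepatocyte markers Apoa1, Cps1 and Pck1 were present in every library. Of the 11 such markers tested, 2 were listed at 0 in at least 1 library, among them Apob in Sham mouse 1, and Alb was not analysed here. The summed list was 21110.9 to 24197.6 FPKM in Control and 17472.5 to 22308.1 FPKM in high-fat mice, so the tissue matched its label.

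Of the 9751 genes, all 4 high-fat mice lay above both Control mice for 1657 (17%) and below them for 900 (9.23%). The scale of the libraries mattered for this split: after upper quartile scaling, 1293 genes were higher and 1385 lower, and after quantile normalization 1316 and 1338. In the moderated test of limma with all 3 groups in the fit, 41 genes (0.42%) passed an FDR of 10%, 20 of them higher (0.205%) and 21 lower (0.215%) in high-fat mice, and such genes are called below. All 4 mice lay on one side for 38 of the 41. At an unadjusted p under 0.05, 803 genes (8.24%) were higher and 352 (3.61%) lower. The members were chosen by the order of the same values, so their differences are given as a description: the median was 0.61 for the higher and -0.63 for the lower genes, and 371 higher and 232 lower genes differed at least 2-fold. The closest case inside the rule was Aifm3, with VSG mouse 2 at 1.1112 FPKM above the higher Control mouse at 1.11116, and the closest outside was Qrsl1, with 2.03904 FPKM in VSG mouse 2 below 2.03935 in Control mouse 1.

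**Figure D1:**
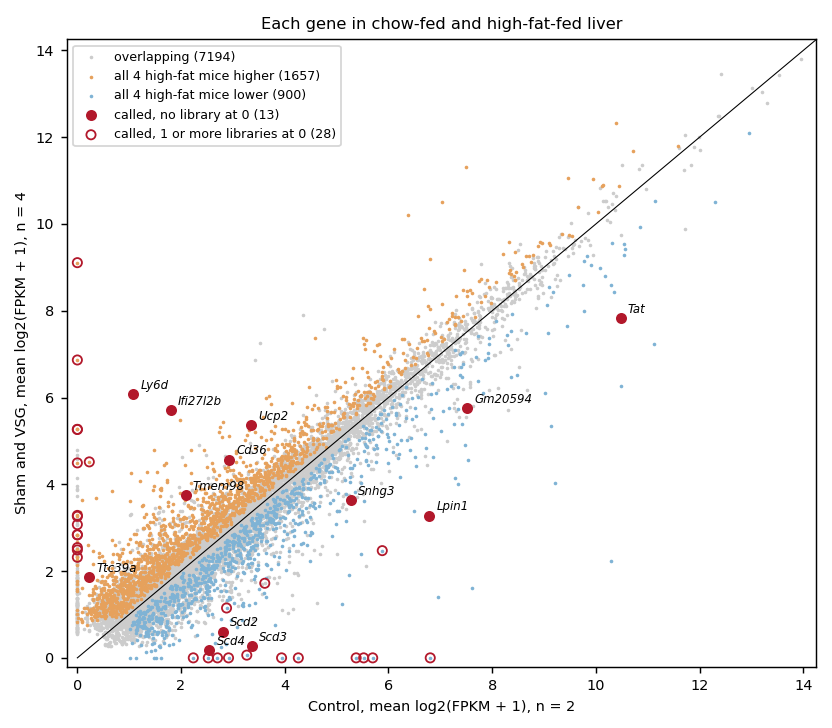
Mean log2(FPKM + 1) of each of the 9751 genes in the 2 Control mice (horizontal) and the 4 high-fat mice (vertical), with the diagonal of equal levels. The 13 called genes with a value above 0 in every library are filled and named, and the 28 called genes listed at 0 in at least 1 library are open circles, many of them on the axes.

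Of the 41 called genes, 13 had an FPKM above 0 in every library, 6 of them higher and 7 lower in high-fat mice. Among these Cd36, the fatty acid translocase that brings long-chain fatty acids into cells, was at 6.73 and 6.48 FPKM in Control, 22.5 and 23.3 in Sham and 20.3 and 25.2 in VSG mice. It rose 3.45-fold (1.64 ± 0.18, adjusted p = 0.0722), and the Sham and VSG mice were level with each other. Ucp2, a carrier of the inner mitochondrial membrane, was at 10.04 and 8.42 FPKM in Control, 42.9 and 50.9 in Sham and 36.9 and 32.1 in VSG mice and rose 4.41-fold (2.01 ± 0.19, adjusted p = 0.0566). Ly6d, a small GPI-anchored surface protein, showed the largest of these changes, from 1.01 and 1.22 FPKM in Control, 82.5 and 148 in Sham and 67.1 and 23.1 in VSG mice. All 4 high-fat mice were far above Control, with the VSG mice below the Sham mice, and the difference was 4.99 ± 0.50 (adjusted p = 0.0659). Ifi27l2b, of the interferon alpha-inducible Ifi27 family, rose from 2.66 and 2.34 FPKM to 34.5 to 79.3 FPKM (3.90 ± 0.41, adjusted p = 0.0711). Tmem98, a membrane protein, was at 3.47 and 3.06 FPKM in Control, 13.2 and 14.4 in Sham and 12.2 and 10.2 in VSG mice (1.65 ± 0.18, adjusted p = 0.0735). Ttc39a, chosen after its values were seen like the other called genes of low level, rose from 0.0827 and 0.257 FPKM to 2.16 to 3.12 FPKM (1.63 ± 0.20, adjusted p = 0.0995).

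Of the 7 called genes that fell and had a value in every library, 3 encode stearoyl-CoA desaturases, which place the double bond into saturated fatty acids made by the cell. Scd3 was at 8.59 and 10.1 FPKM in Control, 0.125 and 0.149 in Sham and 0.429 and 0.156 in VSG mice, a difference of -3.09 ± 0.21 (adjusted p = 0.0212). Scd4 was at 4.49 and 5.23 FPKM in Control, 0.0636 and 0.156 in Sham and 0.217 and 0.0984 in VSG mice (-2.37 ± 0.21, adjusted p = 0.0426). Scd2, the form best known from brain, was at 5.50 and 6.49 FPKM in Control, 0.316 and 0.320 in Sham and 0.525 and 1.02 in VSG mice (-2.20 ± 0.23, adjusted p = 0.0667). The 4 high-fat mice were close to absence of all 3 transcripts, and the groups were far apart. Tat, tyrosine aminotransferase, which starts tyrosine breakdown and answers to glucocorticoids, was at 1376 and 1477 FPKM in Control, 210.2 and 188 in Sham and 233 and 283 in VSG mice. It fell 6.25-fold (-2.65 ± 0.21, adjusted p = 0.0339), with little spread inside either diet. Lpin1, a phosphatidate phosphatase of triglyceride synthesis and a partner of fasting transcription factors, was at 91.9 and 129 FPKM in Control, 6.80 and 10.3 in Sham and 13.4 and 5.95 in VSG mice and fell 12.1-fold (-3.51 ± 0.38, adjusted p = 0.0722). Gm20594, a predicted gene, was at 178 and 188 FPKM in Control, 50.5 and 51.4 in Sham and 56.3 and 54.0 in VSG mice (-1.77 ± 0.16, adjusted p = 0.0541), and Snhg3, a host of small nucleolar RNAs, fell from 33.5 and 42.8 FPKM to 8.64 to 15.8 FPKM (-1.64 ± 0.20, adjusted p = 0.0995).

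**Figure D2:**
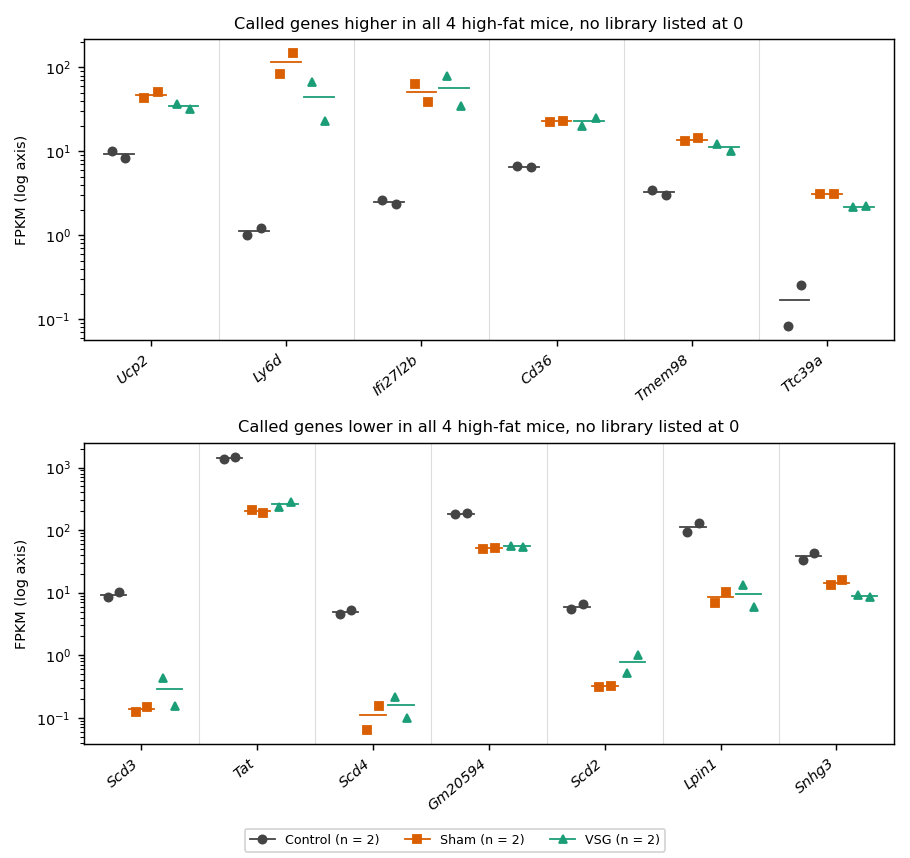
FPKM of each mouse on a log axis for the 6 called genes that rose (top) and the 7 that fell (bottom) with a value above 0 in every library. Points are mice, short lines are means of n = 2, and Scd3, for example, lay at 8.59 and 10.1 FPKM in Control mice and at 0.125 to 0.429 FPKM in high-fat mice.

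The other 28 called genes were listed at 0 in at least 1 library, and 23 of them in every mouse of one diet: 13 in both Control mice and 10 in all 4 high-fat mice. Of all 9751 genes tested, 1542 (15.8%) were listed at 0 in at least 1 library. An exact 0 in such a table can be a failed estimate rather than absence, so no fold is given for these 28 genes. Mrpl18, a protein of the mitochondrial ribosome that cells use throughout the body, was listed at 40.2 and 40.9 FPKM in Control mice and at 0 in all 4 high-fat mice. Nelfcd, of the complex that pauses RNA polymerase, stood at 14.0 and 14.7 FPKM in Control mice and at 0 in the others, and Setd1a, a histone methyltransferase, at 4.65 and 6.504 FPKM against 0. Gm4788, an unnamed gene model, was at 100.0 and 123 FPKM in Control and at 0 in the others, the pseudogene Apoo-ps at 6.47 and 6.63, and the small RNAs Snord35b, Snora5c and Mir6386 at 41.0 and 49.2, at 37.8 and 68.2 and at 16.6 and 19.9 FPKM.

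In the other direction, Lifr, the receptor of leukemia inhibitory factor, was listed at 0 in both Control mice and at 7.08, 3.77, 7.04 and 7.45 FPKM in the high-fat mice. Likewise at 0 in both Control mice were Spryd4 (18.9 to 23.7 FPKM in high-fat mice), Cebpzos (6.37 to 11.3), Ilvbl (4.69 to 8.54), Snord72 (307 to 817), Snord22 (14.1 to 75.9) and Mir3098 (24.8 to 57.2). Il18bp, the soluble protein that captures interleukin-18, was at 0.376 and 0 FPKM in Control and at 28.3, 36.0, 14.5 and 15.3 FPKM in the high-fat mice. AF357399, a small RNA, was at 52.8 and 63.5 FPKM in Control, 39.1 and 22.6 in Sham and 0 and 0 in VSG mice. Of the called genes, 10 by symbol are small RNAs or their hosts, and the share of such symbols among all genes tested was not counted. The same all-or-none pattern between surgeries, at 0 in both mice of one group with at least 5 FPKM in the other 4, was found for 3 genes in Sham and 1 gene in VSG mice. Between diets, 7 genes were at 0 in both Control mice and 7 in all 4 high-fat mice, with at least 5 FPKM in the others. A 0 in 1 library alone, with at least 5 FPKM in the other 5, was common, from 11 genes in Control mouse 1 to 54 in Sham mouse 1. When genes with any 0 were left out before the test, 14 genes were called, 12 of them shared with the 41, and Ubd and Uap1l1 joined the 13 genes above, of which Snhg3 was lost.

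The pathway of fatty acid and triglyceride synthesis was lower in high-fat mice wherever the groups were apart. Of 26 tested members, 8 lay below both Control mice (30.8%, against 9.23% of all genes) and 0 above (against 17%). The list median was -0.58 beside 0.07 over all genes, and 2 were called (Lpin1 and Scd2, above). Scd1, the main liver desaturase, was at 1123 and 308 FPKM in Control, 27.7 and 4.32 in Sham and 74.1 and 5.12 in VSG mice. Both Control mice lay far above the others but also far from each other, and the difference of -5.18 ± 1.31 was not called (adjusted p = 0.291). Elovl6, which lengthens palmitate, was at 15.4 and 15.1 FPKM in Control, 3.87 and 1.39 in Sham and 4.05 and 3.68 in VSG mice (-1.996 ± 0.33, adjusted p = 0.197). Me1, the malic enzyme that supplies NADPH, was at 55.5 and 50.9 FPKM in Control, 33.0 and 19.3 in Sham and 34.6 and 31.9 in VSG mice. Fasn, fatty acid synthase itself, differed less, at 20.7 and 13.7 FPKM in Control, 12.8 and 7.72 in Sham and 13.4 and 7.72 in VSG mice (-0.69 ± 0.35, adjusted p = 0.508). The remaining lower members were Aacs (4.70 to 11.7 FPKM against 18.6 and 22.3 in Control) and Acacb (0 to 1.86 FPKM against 3.79 and 11.6), the carboxylase that makes the malonyl-CoA restraining fat oxidation. Acly, Acaca and Srebf1 overlapped between the diets.

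The 4 Scd genes lie side by side on chromosome 19 (mm9): Scd3 from 44277759 to 44318506, Scd2 from 44368166 to 44381354, Scd4 from 44407582 to 44421233 and Scd1 from 44468941 to 44482199. They are close relatives, so reads could be divided among them in the FPKM estimate and their separate levels are uncertain.

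Genes of lipid uptake and storage went the other way in part. Of the 24 tested members of the lipid droplet and Pparg target list, 8 lay above both Control mice (33.3%, against 17% of all genes) and 2 below (8.33%, against 9.23%). Only Cd36 was called, and the median of the list was 0.45. Cidea, a droplet protein of brown fat, was at 0.0367 and 0.0441 FPKM in Control, 12.9 and 5.30 in Sham and 24.7 and 4.11 in VSG mice. Cidec, its relative that enlarges droplets, was at 5.01 and 3.01 FPKM in Control, 10.02 and 18.5 in Sham and 27.4 and 6.29 in VSG mice. Both were higher in every high-fat mouse with a wide spread among these mice, and neither was called (adjusted p = 0.248 and 0.426). Fabp4, a fatty acid carrier of fat cells and macrophages, was at 15.8 to 67.3 FPKM against 13.1 and 12.8 in Control mice, Fabp2 at 65.9 to 148 FPKM against 56.7 and 40.1, and Anxa2, a membrane-binding annexin, at 13.0 to 31.3 FPKM against 3.55 and 2.93. Pnpla2, the adipose triglyceride lipase that opens droplets, was at 51.3 and 51.5 FPKM in Control, 26.6 and 26.7 in Sham and 25.7 and 28.8 in VSG mice. It was lower in all 4 mice with little spread (-0.91 ± 0.16, adjusted p = 0.198). The receptor gene Pparg itself overlapped, at 2.34 and 3.50 FPKM in Control, 11.1 and 2.58 in Sham and 6.75 and 8.73 in VSG mice. Fat cell markers were near absence: the summed adipocyte and pancreas list was 1.49 to 3.09 FPKM in Control and 5.79 to 25.1 FPKM in high-fat mice, with Adipoq and Plin1 under 1 FPKM in every library.

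In fatty acid oxidation and ketogenesis 3 of 48 tested members lay above both Control mice (6.25%, against 17% of all genes) and 7 below (14.6%, against 9.23%). The median was -0.01, and it was -0.19 without Sham mouse 1 but 0.04 without Sham mouse 2. Ucp2 was the called member. Acot1, an acyl-CoA thioesterase, was at 70.4 and 157 FPKM in Control, 17.1 and 17.2 in Sham and 34.0 and 56.3 in VSG mice. Acadm, the medium-chain dehydrogenase, was at 167 and 156 FPKM in Control, 60.8 and 37.7 in Sham and 92.1 and 148 in VSG mice. These PPARα targets were lower in all 4 mice, while Vnn1, the pantetheinase and another such target, was higher at 46.9 to 68.7 FPKM against 19.9 and 25.9 in Control (1.26 ± 0.22, adjusted p = 0.197). Bdh1, which makes the ketone body hydroxybutyrate, was also higher (62.7 to 129.6 FPKM against 46.1 and 32.6). Of the 67 nuclear-coded subunits of oxidative phosphorylation, 0 lay above and 1 below, a share under the background of 9.23%. After upper quartile scaling 7 lay below, where 1385 of all 9751 genes did, and after quantile normalization 13, where 1338 did.

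**Figure D3:**
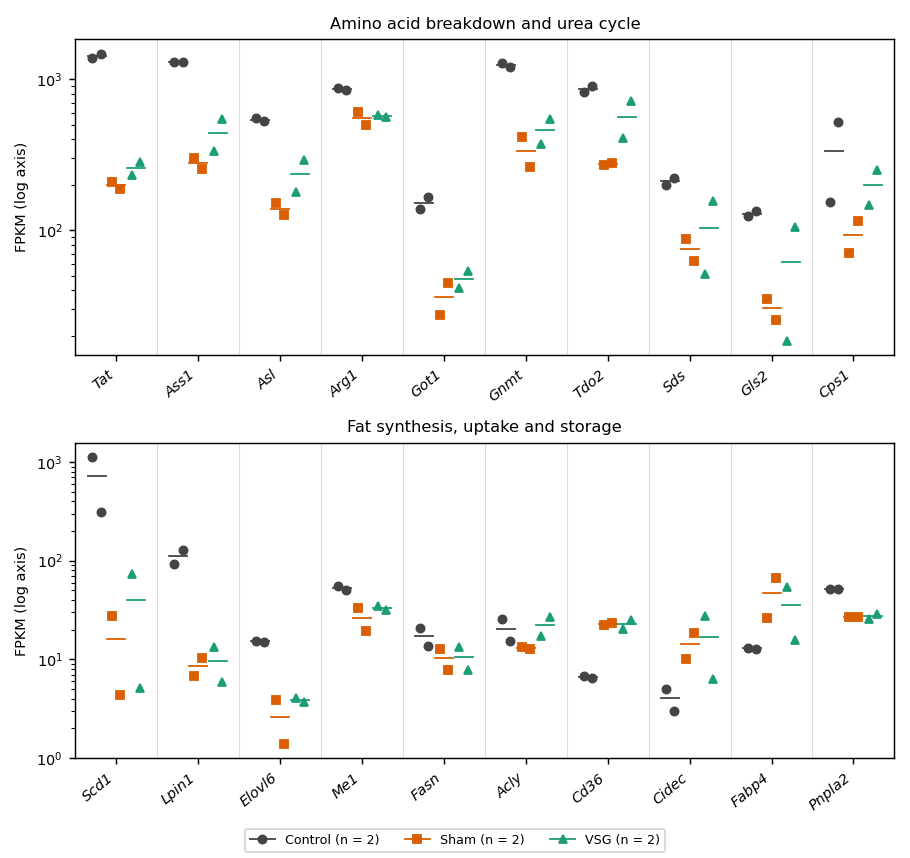
FPKM of each mouse on a log axis for genes of amino acid breakdown and the urea cycle (top) and of fat synthesis, uptake and storage (bottom). Points are mice and short lines are means of n = 2, and Tat lay at 1376 and 1477 FPKM in Control mice and at 188 to 283 FPKM in high-fat mice, whereas Cps1 overlapped.

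Enzymes of amino acid breakdown and the urea cycle were lower in high-fat mice for 16 of 57 tested members (28.1%, against 9.23% of all genes). They were higher for 4 (7.02%, against 17%), with a list median of -0.39. Only Tat was called. The median was -0.62 without VSG mouse 2 but -0.20 without VSG mouse 1. Ass1, argininosuccinate synthase of the urea cycle, was at 1309 and 1302 FPKM in Control, 300.3 and 256 in Sham and 334 and 545 in VSG mice (-1.92 ± 0.28, adjusted p = 0.147). Asl, the next enzyme of the cycle, was at 553 and 527 FPKM in Control, 152 and 127 in Sham and 179.8 and 291 in VSG mice. Arg1, the arginase that releases urea, was at 879 and 856 FPKM in Control, 608 and 500.2 in Sham and 579.8 and 565 in VSG mice. The 3 genes thus lay below Control in every high-fat mouse, by 3.64-fold, 2.88-fold and 1.54-fold of the means. A gene model close to Ass1 in sequence, Gm5424, followed it at 64.7 to 137 FPKM against 330.4 and 326 in Control, and reads may be shared between them. Cps1, which feeds the cycle, overlapped between the diets.

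The same held for several aminotransferases and catabolic enzymes. Got1, aspartate aminotransferase, was at 138 and 166 FPKM in Control, 27.4 and 44.7 in Sham and 41.3 and 53.6 in VSG mice (-1.88 ± 0.28, adjusted p = 0.149). Gnmt, which consumes methyl groups through glycine, was at 1287 and 1205 FPKM in Control, 413 and 261 in Sham and 375 and 546 in VSG mice. Tdo2, which opens the tryptophan ring, was at 269 to 714 FPKM against 819 and 897 in Control, Sds, serine dehydratase, at 51.6 to 156 FPKM against 198 and 223, and Gls2, liver glutaminase, at 18.6 to 104 FPKM against 123 and 134. In these 5 genes VSG mouse 2 lay nearest to the Control mice. Among the 4 higher members was Glul, glutamine synthetase, at 395 to 533 FPKM against 338 and 345 in Control.

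Glucose and glycogen genes were lower for 9 of 33 tested members (27.3%, against 9.23% of all genes) and higher for 2 (6.06%, against 17%). Their median was -0.09, with no call. The median was -0.22 without VSG mouse 2 but -0.03 without VSG mouse 1. Pck1, the rate-limiting enzyme of glucose production, was at 1489.5 and 1485 FPKM in Control, 454 and 688 in Sham and 452 and 1052 in VSG mice. It was lower in every high-fat mouse, with VSG mouse 2 nearest to Control. Ppp1r3g, a glycogen-targeting subunit of protein phosphatase 1, was at 0.444 to 1.42 FPKM against 4.61 and 13.4 in Control (-2.30 ± 0.42, adjusted p = 0.198). Igfbp1, an insulin-suppressed binding protein, was at 466 and 567 FPKM in Control, 24.2 and 339 in Sham and 76.5 and 31.9 in VSG mice, with Sham mouse 2 near Control and the other 3 far below.

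In the list of cytochrome P450 genes of families 1 to 3 and their receptors, 8 of 37 tested members lay below both Control mice (21.6%, against 9.23% of all genes). Above them lay 3 (8.11%, against 17%), and 2 members were called. The median was -0.53, and it was -0.84 without Control mouse 1 but -0.37 without Sham mouse 2. Cyp2b10, the classical target of the receptor CAR, was at 8.46 and 8.81 FPKM in Control, 0.0389 and 0.00900 in Sham and 0.135 and 0 in VSG mice, and it fell on the log2 scale (-3.20 ± 0.20, adjusted p = 0.0159). Cyp3a25 was listed at 0 in both Control mice and at 60.5, 35.1, 114 and 724 FPKM in the high-fat mice (called, adjusted p = 0.0775). Cyp3a11 of the same cluster, the major drug-metabolizing form, was at 1603 and 1293 FPKM in Control, 48.6 and 7.32 in Sham and 100.1 and 828 in VSG mice. Reads may be shared among the related genes of this cluster, so the opposite directions of Cyp3a11 and Cyp3a25 are uncertain. The paper names Cyp3a25 among genes that fell in Sham mice and were reversed in VSG mice, unlike the values listed here. Cyp3a16 was at 37.8 and 35.5 FPKM in Control, 1.32 and 0.163 in Sham and 2.59 and 19.0 in VSG mice. Cyp2b9 was the reverse of Cyp2b10, at 0.0562 and 0.0675 FPKM in Control, 8.43 and 0.324 in Sham and 17.9 and 103 in VSG mice.

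Cyp2c70, which lies in the Cyp2c cluster of close copies and makes the muricholic bile acids of mice, was at 238 and 214 FPKM in Control, 73.3 and 62.6 in Sham and 86.4 and 54.9 in VSG mice (-1.71 ± 0.25, adjusted p = 0.149). Cyp2f2 was at 730.4 and 657 FPKM in Control, 237 and 73.4 in Sham and 209 and 429 in VSG mice. For Cyp3a11, Cyp3a16 and Cyp2f2, Sham mouse 2 was the lowest and VSG mouse 2 the nearest to Control. Cyp2c29 was at 339 and 483 FPKM in Control, 41.5 and 11.2 in Sham and 123 and 424 in VSG mice. Cyp2c50 was at 246 and 279 FPKM in Control, 148 and 20.6 in Sham and 217 and 355 in VSG mice. Reads may be shared within the Cyp2c cluster as well. Both genes overlapped through VSG mouse 2, as did Cyp2c55 (0 to 2.34 FPKM over all 6 mice), and Cyp3a59 was listed at 0 in 1 Control and 1 VSG mouse. Conjugation enzymes were lower for 8 of 39 tested members (20.5%, against 9.23% of all genes) and higher for 2 (5.13%, against 17%), with no call. Sult1d1, a sulfotransferase of catecholamines, was at 86.0 and 86.1 FPKM in Control, 27.9 and 33.2 in Sham and 26.9 and 45.5 in VSG mice. Ugt2b1, a glucuronosyltransferase, was at 14.7 to 81.2 FPKM against 168 and 173 in Control and Gstm1 at 59.2 to 467 FPKM against 816 and 939.

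In mice, many liver enzymes differ between the sexes under the rhythm of growth hormone. Of the male-biased list, 9 of 21 tested members lay below both Control mice (42.9%, against 9.23% of all genes) and 1 above (4.76%, against 17%). Its median was -0.85, with no call. The female-biased list had 4 of 22 above (18.2%) and 3 below (13.6%), with a median of -0.31. It had 1 call, Lifr, given above as listed at 0 in Control mice. Bcl6, the repressor that sustains the male pattern, was the male-biased member that was higher, at 2.61 and 1.57 FPKM in Control, 15.3 and 4.60 in Sham and 18.0 and 25.7 in VSG mice. Slco1a1, an anion transporter, was at 85.8 and 83.9 FPKM in Control, 10.2 and 21.5 in Sham and 54.0 and 40.7 in VSG mice. Selenbp2 was at 482 and 265 FPKM in Control, 200.1 and 34.1 in Sham and 198 and 49.8 in VSG mice. Gstp1 and Ugt2b1 are counted in the conjugation list too. The median of the male-biased list was -1.14 without Sham mouse 1 but -0.54 without Sham mouse 2, and that of the female-biased list -0.56 without Sham mouse 2 but -0.08 without Sham mouse 1.

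Of the bile acid synthesis list, 4 of 18 tested members lay above (22.2%, against 17% of all genes) and 2 below (11.1%, against 9.23%), with no call. Hsd3b7, which modifies the steroid ring, was at 129 and 94.5 FPKM in Control, 298 and 203 in Sham and 322 and 239 in VSG mice. Cyp27a1, which starts the acidic route, was at 274 and 213 FPKM in Control, 136 and 100.1 in Sham and 165 and 128 in VSG mice. Fgfr4, the receptor for the ileal hormone FGF15, was at 11.1 to 14.6 FPKM against 5.73 and 7.97 in Control. Cyp7a1, the rate-limiting enzyme of the classical route, overlapped at 2.28 and 2.60 FPKM in Control, 0 and 4.58 in Sham and 68.3 and 13.2 in VSG mice. Of the cholesterol synthesis and uptake list, 1 of 23 tested lay above and 1 below (4.35% each, against 17% and 9.23%), with no call and a median of -0.39. This median was -0.98 without VSG mouse 1 but 0.07 without Control mouse 1, so its sign depended on 1 library, and it was -0.02 in Sham and -0.77 in VSG mice.

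The acute phase proteins were higher in all 4 high-fat mice for 10 of 27 tested members (37.0%, against 17% of all genes). They were lower for 3 (11.1%, against 9.23%), with no call and a median of 0.60. Orm2, orosomucoid, was at 178 and 180.5 FPKM in Control, 4769 and 7138 in Sham and 2248 and 538 in VSG mice (3.81 ± 0.62, adjusted p = 0.191). Apcs, serum amyloid P, was at 76.9 and 88.8 FPKM in Control, 1125 and 4400.2 in Sham and 1316 and 293 in VSG mice. Lcn2, the iron-scavenging lipocalin, was at 154 and 109 FPKM in Control, 1932 and 5279 in Sham and 2069 and 214 in VSG mice. In each of these 3, Sham mouse 2 was highest and VSG mouse 2 lowest of the high-fat mice, and the list median was 0.14 without Sham mouse 2 and 0.96 without Sham mouse 1. Slpi, a protease inhibitor of secretions, was at 0.157 and 0.315 FPKM in Control, 8.31 and 16.3 in Sham and 2.36 and 0.741 in VSG mice. Cd14, the co-receptor for bacterial lipopolysaccharide, was at 2.25 and 1.31 FPKM in Control, 8.13 and 49.0 in Sham and 2.82 and 2.45 in VSG mice. For both, each Sham mouse lay above each VSG mouse. In the iron list 4 of 22 lay above (18.2%, against 17% of all genes) and 3 below (13.6%, against 9.23%). Hamp encodes hepcidin, the hormone that limits iron export, and is counted with the acute phase proteins too. It was lower, at 2052 and 2407 FPKM in Control, 1253 and 718 in Sham and 99.7 and 4.74 in VSG mice. Hamp2 was at 575 and 542 FPKM in Control, 272 and 160.3 in Sham and 23.0 and 1.56 in VSG mice. Here each VSG mouse lay below each Sham mouse for both genes. Atoh8, which acts upstream of hepcidin, was at 6.80 and 6.46 FPKM in Control, 1.44 and 3.41 in Sham and 0.858 and 1.37 in VSG mice. Steap3, an iron reductase, was higher (6.66 to 8.12 FPKM against 3.25 and 2.34 in Control). The metallothionein Mt1 was at 4506 and 5629 FPKM in Control, 2826 and 3221 in Sham and 869.8 and 555 in VSG mice, lowest in VSG mice.

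Of the Kupffer cell and macrophage list, 10 of 19 tested members (52.6%) lay above both Control mice, and of the recruited macrophage list 5 of 8 (62.5%), against 17% of all genes. Of the 16 recruited macrophage markers listed, only these 8 were tested. Trem2 and Clec7a, under 1 FPKM in both Control mice, passed the filter only through high-fat mice. The share of 62.5% is thus partly set by the filter. In both lists 0 lay below and 0 were called. The medians were 1.15 and 1.27, and that of the Kupffer list was 0.66 without VSG mouse 2 but 1.64 without VSG mouse 1. In bulk liver, more cells of a type and more RNA per cell cannot be told apart. The complement genes C1qa, C1qb and C1qc, which macrophages make, were at 22.4 to 59.9 FPKM against 13.0 and 8.58, at 21.0 to 60.8 FPKM against 10.8 and 6.91 and at 20.5 to 60.0 FPKM against 10.4 and 6.82 FPKM in Control. Ctss, a lysosomal protease of antigen presentation, was at 5.32 and 4.74 FPKM in Control, 19.4 and 23.5 in Sham and 14.1 and 33.0 in VSG mice (1.90 ± 0.37, adjusted p = 0.212). Lyz2, lysozyme, was at 6.54 and 6.69 FPKM in Control, 22.2 and 60.0 in Sham and 19.2 and 49.5 in VSG mice. Marco, a scavenger receptor, was at 1.05 and 1.83 FPKM in Control, 20.6 and 7.001 in Sham and 5.12 and 15.8 in VSG mice. The Kupffer cell gene Clec4f overlapped, at 5.22 and 3.53 FPKM in Control, 2.11 and 8.75 in Sham and 6.31 and 48.8 in VSG mice, with VSG mouse 2 far above all others.

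Of the recruited macrophage markers, Lgals3, galectin-3, was at 0.930 and 1.02 FPKM in Control, 4.22 and 4.69 in Sham and 5.03 and 7.17 in VSG mice (1.65 ± 0.22, adjusted p = 0.12), the smallest p of the list. Trem2, the lipid-sensing receptor of macrophages around fat-laden cells, was at 0.397 and 0.382 FPKM in Control, 2.88 and 3.39 in Sham and 2.04 and 1.55 in VSG mice (1.29 ± 0.21, adjusted p = 0.18). The means of the high-fat mice were 5.41 and 6.33 times those of Control. Cd63 was at 9.19 to 106 FPKM against 4.21 and 4.69 in Control and Clec7a at 1.53 to 3.86 FPKM against 0.400 and 0.175. The summed level of the whole Kupffer list was 71.2 to 91.7 FPKM in Control and 158 to 528 FPKM in high-fat mice, where the exact permutation test gave p = 0.133, the smallest that 4 mice against 2 allow. Without VSG mouse 2, whose sum of 528 FPKM was the highest, the high-fat range was 158 to 232 FPKM. The summed recruited macrophage list was 77.6 to 88.5 FPKM in Control and 88.8 to 274 FPKM in high-fat mice. Here VSG mouse 2, at 88.8 FPKM, lay barely above Control mouse 1 at 88.5 FPKM.

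Of the neutrophil markers, 5 of 7 tested (71.4%, against 17% of all genes) lay above both Control mice, with no call, and 4 after upper quartile scaling. S100a8, a calprotectin subunit, was at 6.94 and 2.25 FPKM in Control, 21.6 and 23.2 in Sham and 11.2 and 7.74 in VSG mice. The partner subunit S100a9 was at 5.40 and 2.66 FPKM in Control, 18.2 and 19.9 in Sham and 9.43 and 8.40 in VSG mice. Of the chitinase-like members Chil1 and Chil3, Chil1 was at 0.0949 and 0.228 FPKM in Control, 17.0 and 6.35 in Sham and 2.65 and 1.78 in VSG mice (2.38 ± 0.41, adjusted p = 0.197). Chil3 was at 0.547 to 2.23 FPKM against 0.132 and 0 in Control. Of the 17 neutrophil markers listed, 7 were tested. Chil1 and Chil3 passed the filter only through high-fat mice, so the share of 71.4% is partly set by the filter. The summed neutrophil list, 116 to 171 FPKM in Control and 236 to 5338 FPKM in high-fat mice, consisted mostly of Lcn2, which hepatocytes also make. Chemokine genes were higher for 4 of 14 tested members (28.6%, against 17% of all genes) and lower for 0. Ccl2, which draws monocytes, was at 0.884 to 2.34 FPKM against 0.586 and 0.0703 in Control, and it too passed the filter only through high-fat mice. Markers of T, NK and B cells were too low to describe, with a summed level of 3.16 to 3.34 FPKM in Control and 3.39 to 12.3 FPKM in high-fat mice and Cd3e, Cd8a, Nkg7 and Cd79a under 1 FPKM in every library. Class II genes were higher for 4 of 7 (57.1%, against 17%), with H2-Eb1 at 4.97 to 10.2 FPKM against 4.93 and 2.86.

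**Figure D4:**
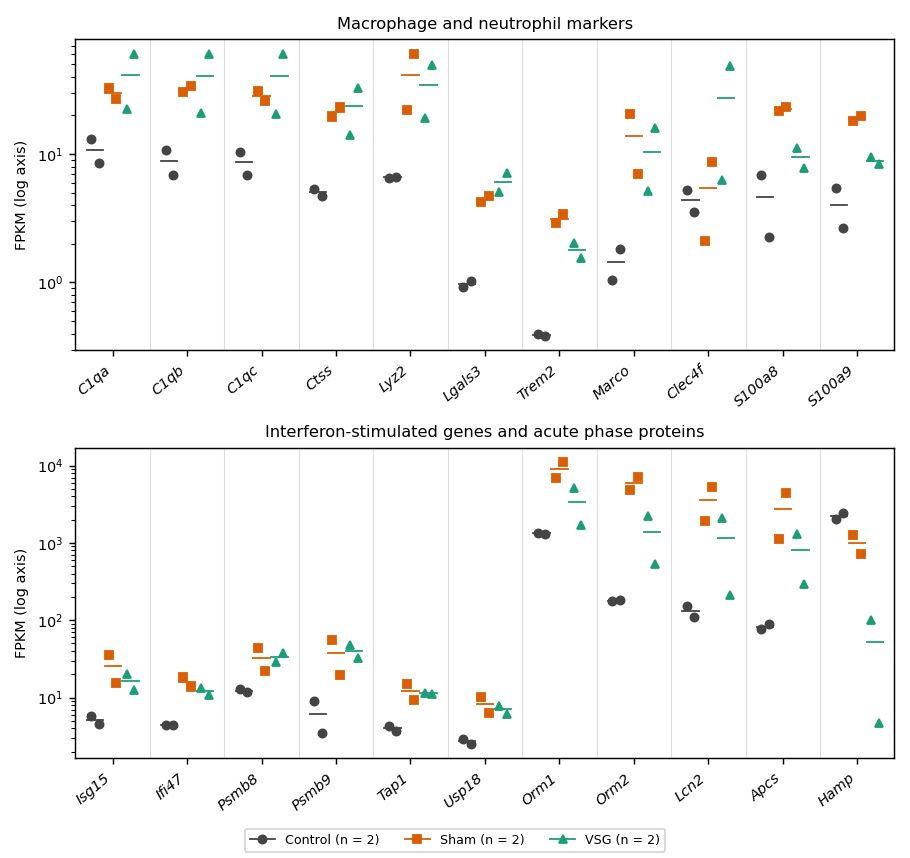
FPKM of each mouse on a log axis for macrophage and neutrophil markers (top) and for interferon-stimulated genes and acute phase proteins (bottom). Points are mice and short lines are means of n = 2, and Lgals3 lay at 0.930 and 1.02 FPKM in Control mice and at 4.22 to 7.17 FPKM in high-fat mice, while Clec4f overlapped and Hamp was lower.

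Interferon-stimulated genes had by count the most members on one side of any list: 19 of 37 tested (51.4%, against 17% of all genes) lay above both Control mice. Below them lay 1, Rsad2 (2.70%, against 9.23%). The list median was 0.69, with no call. Ifi47, an immunity-related GTPase, was at 4.45 and 4.45 FPKM in Control, 18.4 and 13.8 in Sham and 13.2 and 10.9 in VSG mice (1.45 ± 0.21, adjusted p = 0.141). Isg15, the ubiquitin-like modifier, was at 5.75 and 4.52 FPKM in Control, 35.8 and 15.4 in Sham and 19.95 and 12.7 in VSG mice. Usp18, which removes it, was at 2.95 and 2.48 FPKM in Control, 10.02 and 6.32 in Sham and 7.85 and 6.16 in VSG mice. All 3 were highest in Sham mouse 1. Tap1, the transporter of peptides for class I molecules, was at 4.31 and 3.66 FPKM in Control, 14.9 and 9.28 in Sham and 11.5 and 11.2 in VSG mice (1.34 ± 0.24, adjusted p = 0.199). Its partner Tap2, which is not in the list, was at 15.7 to 17.8 FPKM against 6.11 and 4.67 in Control. Psmb8 and Psmb9, the subunits of the immunoproteasome, were at 22.0 to 43.7 FPKM against 12.8 and 11.9 and at 19.3 to 55.5 FPKM against 8.96 and 3.43 FPKM in Control. Zbp1, a sensor of viral nucleic acid, was at 7.72 to 13.9 FPKM against 2.60 and 4.38. Ubd, a ubiquitin-like protein induced with the immunoproteasome, was at 0.385 and 0.173 FPKM in Control, 28.5 and 11.4 in Sham and 9.29 and 6.48 in VSG mice (3.35 ± 0.41, adjusted p = 0.1). After upper quartile scaling and after quantile normalization, 19 lay above as well, and leaving out each mouse in turn the median lay between 0.58 and 0.81.

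Sinusoidal endothelial markers were lower for 4 of 20 tested members (20%, against 9.23% of all genes) and higher for 0 (against 17%). Lyve1, the hyaluronan receptor of these cells, was at 4.15 and 1.81 FPKM in Control, 1.39 and 0.614 in Sham and 0.913 and 0.893 in VSG mice. Pecam1 was at 2.57 and 2.27 FPKM in Control, 0 and 0.320 in Sham and 0.737 and 1.67 in VSG mice. Ehd3 was at 6.97 and 6.07 FPKM in Control, 3.19 and 1.51 in Sham and 5.47 and 4.17 in VSG mice. These 3 were lower in every high-fat mouse. Bmp2, which endothelial cells release and which hepatocytes answer with hepcidin, was at 2.74 and 1.84 FPKM in Control, 0.977 and 0.269 in Sham and 0.233 and 0.379 in VSG mice. The summed list overlapped, with 56.2 to 104 FPKM in Control and 20.6 to 80.4 FPKM in high-fat mice. Matrix genes were higher for 5 of 24 (20.8%, against 17% of all genes) and lower for 2 (8.33%, against 9.23%). Collagen Col1a1 was at 0.628 and 0.510 FPKM in Control, 0.638 and 2.92 in Sham and 1.79 and 1.20 in VSG mice, low throughout.

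Among secreted liver hormones and the growth hormone axis, 11 of 33 tested members (33.3%, against 17% of all genes) were higher in all 4 high-fat mice and 3 lower (9.09%, against 9.23%), with no call. After upper quartile scaling 8 were higher, where 1293 of all 9751 genes were. Fgf21, the fasting and stress hormone, was at 4.54 and 7.75 FPKM in Control, 21.1 and 116 in Sham and 121 and 10.1 in VSG mice. Gdf15, which acts on appetite, was at 11.4 and 13.2 FPKM in Control, 20.9 and 38.7 in Sham and 79.7 and 27.6 in VSG mice. Neither gene overlapped between the diets. Angptl8, an insulin-induced inhibitor of lipoprotein lipase, was at 15.5 and 7.56 FPKM in Control, 28.5 and 34.5 in Sham and 94.9 and 46.7 in VSG mice (1.98 ± 0.42, adjusted p = 0.24). Lect2 was at 47.6 and 41.9 FPKM in Control, 218 and 66.2 in Sham and 272 and 181 in VSG mice. VSG mouse 1 was the highest in all 4 genes. Enho, adropin, was at 17.1 to 39.2 FPKM against 9.26 and 6.61 in Control and Inhbe at 28.3 to 92.5 FPKM against 24.9 and 23.3. Of the endoplasmic reticulum stress list, 4 of 30 were higher (13.3%, against 17%) and 5 lower (16.7%, against 9.23%). Herpud1, a component of protein clearance, was lower at 328 and 307 FPKM in Control, 143 and 99.8 in Sham and 166 and 200.3 in VSG mice. Trib3 was higher at 3.13 to 10.1 FPKM against 1.34 and 0.733. In the cell cycle list 8 of 17 were higher (47.1%, against 17%) and 2 lower (11.8%, against 9.23%). Among them Mcm6 (1.30 to 1.95 FPKM against 0.538 and 0.735) and Cdkn2c (3.56 to 5.21 FPKM against 1.70 and 1.60) were higher, while Rrm2 was lower (0.945 to 2.31 FPKM against 4.96 and 4.54). With quantile normalization 3 lay above, where 1316 of all 9751 genes did. Of the 40 cell cycle genes listed, 17 were tested, and Mcm6 passed the filter only through high-fat mice.

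Clock genes were lower for 3 of 21 tested (14.3%, against 9.23% of all genes) and higher for 1 (4.76%, against 17%). Nr1d1, the repressor REV-ERBα, was the higher member, at 7.88 and 6.84 FPKM in Control, 19.0 and 15.6 in Sham and 63.3 and 22.1 in VSG mice. Cry1, a repressor of the other arm, was lower at 5.26 and 3.69 FPKM in Control, 1.11 and 1.70 in Sham and 1.07 and 2.94 in VSG mice. Nfil3 was at 17.9 and 14.3 FPKM in Control, 2.90 and 5.65 in Sham and 2.15 and 10.6 in VSG mice. The time of day of tissue collection was not used here. Of the immediate early genes 3 of 24 lay above (12.5%, against 17%) and 6 below (25%, against 9.23%). Gadd45g, a stress-response gene, was at 159 and 152 FPKM in Control, 15.3 and 42.5 in Sham and 14.7 and 7.89 in VSG mice (-3.14 ± 0.47, adjusted p = 0.159). The remaining lists gave 5 above and 5 below of 33 for apolipoproteins (15.2% each) and 5 above and 1 below of 22 for Nrf2 targets and metallothioneins (22.7% and 4.55%). They gave 3 above and 1 below of 17 for transporters (17.6% and 5.88%) and 2 above and 2 below of 11 for hepatocyte markers (18.2% each), Tat among the last. The shares of all genes were 17% and 9.23%. Of the cholangiocyte markers 2 above and 0 below of 4 were so placed, with Krt7 and Epcam under 1 FPKM in every library, and of the erythroid markers 0 above and 0 below of 5.

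**Figure D5:**
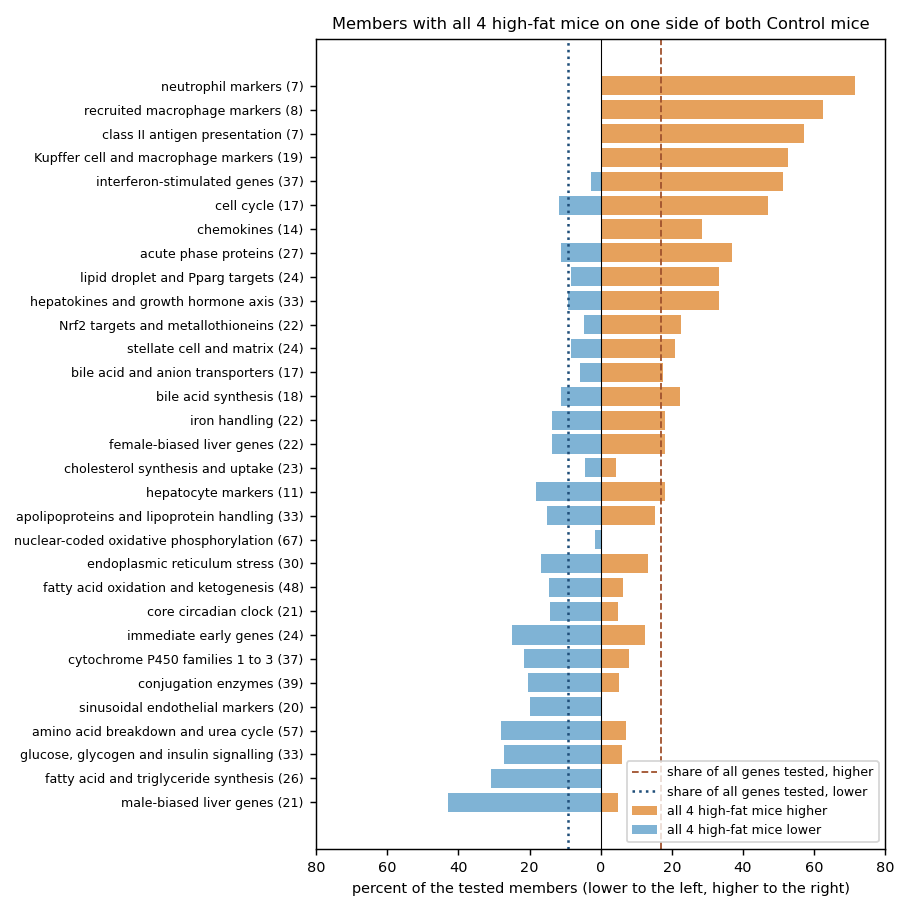
Percent of the tested members of each gene list (number tested in brackets, lists of at least 7) with all 4 high-fat mice above (right) or below (left) both Control mice. Dashed and dotted lines give the shares over all genes tested, 17% and 9.23%, which the immune lists exceed on the higher and the male-biased, fat synthesis and amino acid lists on the lower side. Members under 1 FPKM in both Control mice were tested only through high-fat mice.

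The groups were also compared with Control separately in the same fit, with the Control mice shared. Sham mice differed from Control at 30 genes (0.308%) and VSG mice at 28 (0.287%). For the members that were higher, the median difference from Control was 0.62 in Sham and 0.62 in VSG mice, and for those that were lower -0.65 and -0.55. VSG and Sham mice differed from each other at 5 genes (0.0513%), of which AF357399 was a member. Tat differed from Control by -2.84 in Sham and -2.47 in VSG mice, Cd36 by 1.65 and 1.63, Lpin1 by -3.55 and -3.46 and Trem2 by 1.57 and 1.004. Ass1 differed by -2.23 and -1.61, Orm2 by 5.02 and 2.61 and Hamp by -1.23 and -6.53. For none of these 7 genes did VSG differ from Sham past the FDR, with limma adjusted p from 0.825 to 0.998 and unadjusted p from 0.0111 to 0.939.

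The RefSeq table held promoters of 7790 of the 9751 tested genes, and the share with each element in the 250 bases before and 50 bases after the start is given for the members beside that of all these genes. AGGTCA was present for 16.4% of the 1311 higher and 16.0% of the 708 lower genes, beside 15.5% of all. TCACNCCAC was present for 1.37% and 1.69%, beside 1.55%, and CACGTG for 12.4% and 11.7%, beside 12.1%. Of the 27 called genes with a promoter, 8 held AGGTCA (29.6%), 2 held TCACNCCAC (7.41%) and 5 held CACGTG (18.5%). The PPAR arrangement was found for 0 of these 27, 2 higher genes, 0 lower genes and 5 of all. The FAIRE peaks of the same livers, regions of open chromatin called on both mice of a group together, gave no replicate. A Control peak lay within 1000 bases of the start (GENCODE M1, mm9) for 82.4% of the 1449 higher and 86.9% of the 804 lower genes placed, beside 85.8% of all 8566, and a Sham peak for 82.7%, 85.6% and 85.3%.

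At the genes whose sequences are printed, the upstream stretches of Tat and Ucp2 overlapped a peak in all 3 groups. That of Cyp2b10 overlapped a peak in Control but not in Sham or VSG mice. Of all genes placed, 0.642% had a peak near the start in Control alone and 1.004% in both Sham and VSG but not Control, and each pattern occurred at 1 of the 35 called genes placed. The peak lists differ in length, from 42204 for Control through 44539 for VSG to 52881 for Sham. Those of Scd3, Scd4, Lpin1 and Cd36 overlapped no peak in any group. For Lpin1 the GENCODE start, from which 16596576 on chromosome 12 is counted, lies apart from the RefSeq start shown, and it had a peak in all 3 groups. At Scd2 a peak lay near the start in Sham and VSG but not in Control mice.

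The calls depended on both Control mice, and on the high-fat mice as well. Cd36, Lpin1, Scd2, Ifi27l2b, Tmem98, Ttc39a and Snhg3 lost their call whichever mouse was left out. Their directions stayed, with Cd36 between 1.57 and 1.72 and Lpin1 between -3.77 and -3.24. Without Control mouse 1, 5 genes were called, namely Gm4788, Mrpl18, Snora5c, Snord35b and Snord72, each listed at 0 in every mouse of one diet, and without Control mouse 2 limma called 0. At an unadjusted p under 0.05 there were 611 and 522 genes. Without Sham mouse 2, 73 genes were called, without VSG mouse 1 18 and without VSG mouse 2 20.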

How the data were processed

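RNA-seq of 2 livers per group was used as the FPKM per RefSeq transcript that the authors deposited, made from 50-bp reads with TopHat2 on mm9 and Cufflinks (versions not given in the sources used here). The labels describe poly(A) enrichment and the study's methods Ribo-Zero depletion. From these, FPKM were summed per gene symbol (34046 of 34933 transcripts matched), genes with FPKM of at least 1 in 2 libraries were kept, and log2(FPKM + 1) was fitted with limma 3.58.1 (trend, R 4.3.3, 3 groups). The diet difference was the mean of Sham and VSG minus Control, 2-sided, with Benjamini-Hochberg adjustment over all genes and an FDR of 10%. The fit was tested on simulated data. Peaks, in a deposited table with an F-seq signal value per peak that the authors combined over both mice of a group, were used for their positions only. Tables of the authors' own comparisons (fold changes and p-values, and sites called from them) were not used.

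Members and the 35 gene lists were chosen with earlier results of these data known. Of 1082 list entries, 1052 matched a symbol in the table, and the other 30 were not analysed here. Genes were named by rule: per direction the 12 called genes of smallest p on one side with a mean of at least 5 FPKM and above 0 in every mouse of the higher diet, the defining members of each list, up to 4 called genes per list, and 10 genes the study follows (Cyp2c29, Cyp2c50, Cyp2c55, Cyp3a11, Cyp3a25, Cyp3a59, Cyp7a1, Cd14, Slpi and Pparg). Other genes named were chosen after their values were seen. With 4 mice against 2, an exact permutation test of 1 value has 15 arrangements and cannot go below p = 0.133. The alternatives were other pseudocounts, filters, scalings, models and thresholds, and leaving out each mouse.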

Additional observations from a re-analysis of the deposited data

Results flagged for a closer look

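Among the 4 high-fat mice, 1 mouse lay far from the other 3 by Dixon's test for 18 of the 267 named genes checked, where chance flags about 1 in 20. Sham mouse 2 was the outlying mouse for 7 genes, with Alas2 at 11.3, Elovl6 at 1.39, Gstm1 at 59.2, Lifr at 3.77, Me1 at 19.3, Pdk4 at 10.3 and Thrsp at 5.56 FPKM. VSG mouse 2 was outlying for Apoa4, listed at 0, Clec7a at 3.86, Fdps at 15.8, Hspa5 at 104.9, Sqle at 1.21 and Vsig4 at 21.6 FPKM. Sham mouse 1 was outlying for Apob, listed at 0, Cdkn2c at 5.21 and Ifit1 at 4.99 FPKM, and VSG mouse 1 for Atf3 at 7.99 and Scd3 at 0.429 FPKM.

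Of the 5 genes at which VSG and Sham mice differed from each other by limma, with adjustment over all genes, 4 are among the genes called in the diet difference, namely AF357399 (VSG minus Sham -4.94 on the log2 scale, adjusted p = 0.0578), Dedd (3.44, adjusted p = 0.0578), Mir1929 (5.08, adjusted p = 0.0291) and Snord16a (-6.14, adjusted p = 0.0578). At 3 named genes the mice of one operation lay above and those of the other below both Control mice, with a VSG minus Sham difference of 1.63 at Gclc, 0.70 at Lrat and -1.96 at Mogat1, none past the FDR by limma (adjusted p = 0.941 for each).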

How the results depend on the processing

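Against the 41 genes called by limma in the diet difference (20 higher and 21 lower), 24 (6 and 18) were called with a pseudocount of 5, 14 without genes listed at 0 (12 of them among the 41), 20 at an adjusted p of 0.05 and 0 (925 at an unadjusted p under 0.05) when FPKM of at least 1 was required in all 6 libraries. The split was 27 and 15 with a pseudocount of 0.1, 14 and 36 with no filter and 30 and 22 with 2 diet groups. Against the 38 called genes on one side, the counts were 23, 14 (12 of them among the 38), 19 and 0. Leaving out each mouse in turn gave 0 to 73 and 0 to 61. Genes on one side numbered 3941 without a filter and 3004 to 4331 without 1 mouse. With each mouse left out, Sham minus Control had 0 to 158 calls, VSG minus Control 0 to 34 and VSG minus Sham 0 to 51, and the counts of 0 had between 324 and 670 genes at an unadjusted p under 0.05. Where an arm was left with 1 mouse, it was assumed to vary like the other groups. The direction of the 41 called genes was kept in all 596 values, of which 263 missed the FDR. For the 38 on one side, leaving out a mouse or changing the pseudocount, filter or model could not turn the direction, so this was fixed in advance. Of 558 list medians, 40 moved by more than the spread. The cause of these changes was not tested.

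Replicate numbers are shared between groups, and same-numbered mice correlated at 0.107, 0.059 and 0.030 in their deviations. Whether same-numbered mice shared more than a number, such as a batch, was not tested. With a replicate block, 9 genes were called in the diet difference, 9 of them on one side, 9 in Sham minus Control, 10 in VSG minus Control and 0 in VSG minus Sham (503 at an unadjusted p under 0.05). Read depth is unknown, so no counting interval can be given for low FPKM.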
